A study of Mus musculus with 16 samples.

Results

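The genes described here are 10 genes of mesenchymal transition (Vim, Fn1, S100a4, Cdh2, Prrx1, Zeb1, Zeb2, Snai1, Snai2 and Twist1), chosen by name from the 22298 genes counted in each of 16 abdominal tumors. All 10 had enough reads to be tested. The mice were wild type, immunocompetent and of the inbred strain from which MFC cells come, were 6 weeks old, and each received 500000 MFC cells, a gastric cancer line of mouse forestomach origin, into the peritoneal cavity. Vehicle mice were given PBS and treated mice IL-33 at 20 μg/kg, both intraperitoneally every 2 days, and 8 tumors of each group were sequenced. The sources used here do not say whether each tumor came from its own mouse, so tumors may share mice and the p-values measure only the spread between tumors. The question put to these genes is whether tumors of the IL-33 treatment group differed from vehicle tumors in mesenchymal gene expression.

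Epithelial-mesenchymal transition is the program by which epithelial cells loosen their junctions and take on the shape and motility of mesenchymal cells. Transcription factors of the Snail, ZEB and Twist families bind E-box sequences in the promoters of epithelial genes such as Cdh1 (E-cadherin) and repress them, while vimentin, fibronectin and N-cadherin are made. In carcinoma the program is tied to invasion and dissemination, the peritoneal cavity included. Fibroblasts, smooth muscle, endothelium and macrophages make many of the same transcripts, so in bulk RNA, where MFC and host reads are mixed, fewer cells of a type and less RNA per cell cannot be told apart.

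Sequences of 2 genes show the E-box in its setting, the first an epithelial gene at a low level in 15 tumors and the second a member. The runs below, from RefSeq on GRCm38.p6, hold the 250 bases before the transcription start, 5′ to 3′ on the gene's strand, with each CAGGTG or its reverse complement CACCTG in capitals. Epcam, at chr17:87635729-87635978 (plus strand), encodes an epithelial adhesion molecule, and Snai1, at chr2:167537945-167538194 (plus strand), encodes Snail itself.
Epcam: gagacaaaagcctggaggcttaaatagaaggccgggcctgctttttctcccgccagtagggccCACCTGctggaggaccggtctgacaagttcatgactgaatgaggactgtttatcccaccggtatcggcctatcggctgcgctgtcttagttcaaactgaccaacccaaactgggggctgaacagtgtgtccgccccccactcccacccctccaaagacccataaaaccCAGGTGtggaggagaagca
Snai1: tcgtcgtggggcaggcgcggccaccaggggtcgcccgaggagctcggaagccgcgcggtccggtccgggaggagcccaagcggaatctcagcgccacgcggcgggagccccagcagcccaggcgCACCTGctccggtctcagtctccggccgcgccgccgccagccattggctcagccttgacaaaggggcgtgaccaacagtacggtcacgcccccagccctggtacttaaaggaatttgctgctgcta
The Epcam run holds matches starting 187 and 19 bases before the start, and the Snai1 run holds 1 match starting 126 bases before it. RefSeq promoter entries were found for 6 of the 10 members, and only that of Snai1 among the 6 held a match. Of the 21 epithelial genes listed as counterparts, 14 had an entry and 9 of these held a match in at least 1 of their promoters. Krt8, abundant in these tumors, held 1 match, while Cldn3 and Dsp, scarce in 15 tumors, held 0. Cdh1 had no entry. Over the 27025 genes of the table the share with a match was 19.4%, and over its 32851 promoters it was 17.2%. A match of letters is a description and does not show binding.

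A pair of tumors stood apart from the rest, and results they change are given without them too. Total counts ranged from 14139268 to 24290794 over the vehicle tumors and from 16569613 to 24288893 over the IL-33 tumors. IL-33 replicate 7 had the highest level of all 10 ovary marker genes, 8 of 10 uterus and oviduct genes, 8 of 9 smooth muscle and pericyte genes, 8 of 10 fibroblast genes and all 7 endothelium genes. Over all genes tested, 7230 of 16817 were highest in that tumor too. The ovary genes summed to 1047 CPM there (counts scaled to the tumor's total count, CPM) and to at most 8.22 CPM elsewhere. Vehicle replicate 4 had the lowest TMM scaling factor (0.64, against 0.895 to 1.24 in the others) and the most negative length trend. The length trend is, across 9581 well-expressed genes, the rank correlation between exon length and a gene's deviation from its median over the tumors. It stood at -0.546 in vehicle replicate 4, at -0.524 in IL-33 replicate 3 and at -0.435 in vehicle replicate 7. It reached 0.424 in vehicle replicate 3.

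Vim, S100a4 and Fn1 were among the most abundant transcripts of these tumors. Levels per length, in TPM, can be compared between genes, and over the 15 tumors other than IL-33 replicate 7 the medians ran from S100a4 (3486 TPM, range 1317 to 6787) through Vim (3070 TPM, 2086 to 3923), Fn1 (949 TPM, 141 to 1623), Twist1 (228 TPM, 123 to 339) and Prrx1 (80.4 TPM, 25.9 to 108). Snai1 (40.6 TPM, 19.2 to 67.4), Snai2 (36.0 TPM, 9.31 to 49.4), Zeb1 (15.9 TPM, 3.09 to 22.4), Zeb2 (13.4 TPM, 2.26 to 18.4) and Cdh2 (0.651 TPM, 0.164 to 1.83) followed. In this order the ranges did not overlap between Vim and Fn1, between Twist1 and Prrx1, and between Zeb2 and Cdh2, while the ranges of all other neighbours overlapped. The median of Vim stood at the 99.8th percentile of all genes and that of Cdh2 at the 44.1st.

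**Figure D1:**
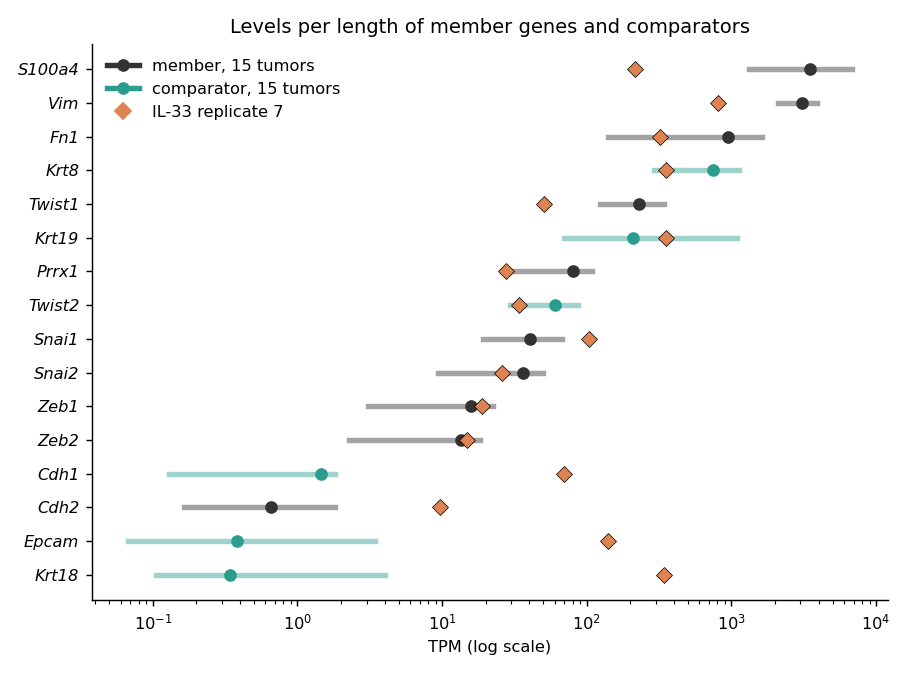
Levels per length (TPM, log scale) of the 10 members and 6 comparator genes, with the median (point) and the range (bar) over 15 tumors and IL-33 replicate 7 as a diamond. Vim, S100a4 and Fn1 lie at the top, and Cdh2, Cdh1, Epcam and Krt18 lie at the bottom. In IL-33 replicate 7 Cdh1, Epcam and Krt18 leave the bottom, while Cdh2 (9.74 TPM) is still the lowest.

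Both cadherins were low among the genes compared here. Among all genes their medians stood near the middle, at percentile 48.1 for Cdh1 and 44.1 for Cdh2. Cdh1 had a median of 1.46 TPM over 15 tumors, and Cdh2 was below Cdh1 per length in 12 of 16 tumors. Epcam (median 0.383 TPM) and Krt18 (median 0.342 TPM) were lower still. Krt8, a simple-epithelium keratin, in turn had a median of 740 TPM and Krt19, a ductal keratin, one of 208 TPM. Vim exceeded Krt8 per length in 16 of 16 tumors, by a median of 4.15-fold over 15 tumors, with a range of 2.00 to 8.30.

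Among paired factors, Twist1 exceeded its paralog Twist2 per length in 16 of 16 tumors. The median ratio was 4.58 over 15 tumors, with 1.41 in vehicle replicate 4 and a similar 1.48 in IL-33 replicate 7. Zeb1 was higher per length than Zeb2 in 11 of 16 tumors, with ratios of 0.815 to 1.66 over 15 tumors. Snai1 exceeded Snai2 in 11 of 16 tumors, and the ratio was 4.05 in IL-33 replicate 7 against a median of 1.08 in the others.

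None of the 10 members passed the test between the groups. By edgeR's quasi-likelihood test 0 of 10 had an adjusted p under 0.05, as had 0% of the 16817 genes tested. At an unadjusted p under 0.05, 0 of 10 members were higher in the IL-33 treatment group, where 9.99% of all genes were, and 0 were lower, where 1.17% were. Without IL-33 replicate 7 the counts were again 0 and 0, beside 1.83% of 15803 genes higher and 2.29% lower. DESeq2 also called 0 members, at an adjusted or an unadjusted p under 0.05, with all tumors and without that tumor. Groups overlapped in CPM for all 10 members, and 0% of the genes tested had groups that did not overlap. The median log2 fold change of the members was -0.16 beside 0.06 over all genes, and -0.10 beside -0.01 without IL-33 replicate 7.

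**Figure D2:**
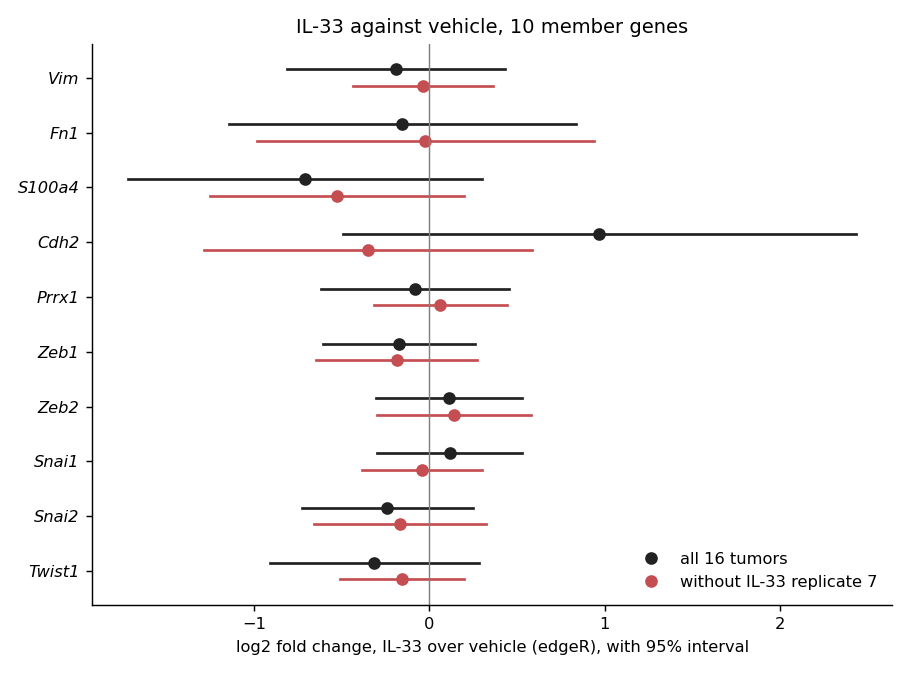
Log2 fold change of each member, IL-33 treatment over vehicle, from edgeR, with its 95% interval (line), for all 16 tumors (black) and without IL-33 replicate 7 (red). Every interval spans 0, and Cdh2 moves from 0.97 to -0.35 when the tumor is left out.

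Structural and matrix members come first. Vim encodes vimentin, the intermediate filament of mesenchymal cells (chr2:13573927-13582826). Its lowest, median and highest values were 4096.5, 4849.5 and 5474.9 CPM in the vehicle group and 1248.6, 4580.2 and 6290.4 CPM over the treated tumors. The IL-33 tumors lay on both sides of the vehicle range, with 3 below it and 2 above it, and the lowest was replicate 7. The group means were 4860 ± 506 CPM and 4461 ± 1653 CPM (SD, n = 8 each). The log2 fold change was -0.19 ± 0.29 (SE), with a 95% interval of -0.81 to 0.43, and -0.04 ± 0.19 without replicate 7, where the interval was -0.44 to 0.36. In the exact permutation test of log2(CPM + 0.5) over 12870 assignments (two-sided) p was 0.479. Over the vehicle tumors Vim had the lowest coefficient of variation of the members, 10.4%.

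Fn1, which encodes the matrix glycoprotein fibronectin (chr1:71585520-71653200), had a coefficient of variation of 63.5% over the vehicle tumors. It had 786, 3424.2 and 6127.2 CPM as lowest, median and highest in the vehicle group and 1073.8, 2842.2 and 4962.3 CPM in the IL-33 treatment group. Both groups held low and high tumors and overlapped over most of their range. The 16 values fell into 2 sets, 7 tumors between 786 and 1854.2 CPM (3 vehicle and 4 IL-33) and 9 between 3299.5 and 6127.2 CPM (5 vehicle and 4 IL-33), with a 1.78-fold gap and no tumor between. Group means were 3300 ± 2096 CPM and 2955 ± 1648 CPM (SD, n = 8 each), with a log2 fold change of -0.15 ± 0.47 (95% interval -1.14 to 0.83) and an exact permutation p of 0.955.

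S100a4, a small calcium-binding protein also known as FSP1 and used as a fibroblast and transition marker (chr3:90603771-90606045), had the largest difference among members other than Cdh2 in the edgeR fit with all tumors. Vehicle tumors had 608, 794 and 1449.1 CPM as lowest, median and highest. The IL-33 tumors, by replicate number from 1 to 8, had 749, 551, 1440.8, 484, 579, 263, 40.6 and 496 CPM. Thus 6 of 8 IL-33 tumors were below every vehicle tumor, while replicate 3 stood near the vehicle maximum. Such a pattern, singled out after the values were seen, was shown by 0.131% of the genes tested. With TMM-scaled CPM 5 of 8 were below, a pattern of at least 5 that 0.755% of the genes showed. The group means were 840 ± 277 CPM and 575 ± 410 CPM (SD, n = 8 each). The difference did not pass the test, with a log2 fold change of -0.71 ± 0.48, an edgeR p of 0.156 (adjusted p 0.628) and an exact permutation p of 0.0712.

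The S100a4 value turned on single tumors. Without IL-33 replicate 7 the log2 fold change was -0.53 ± 0.34 (exact permutation p 0.141), leaving out vehicle replicate 4 gave -0.37 ± 0.46, and without both it was -0.19 ± 0.27. Without IL-33 replicate 3 it was -1.05 ± 0.46, with an unadjusted edgeR p of 0.0382 and an adjusted p of 0.371. The 2 tumors with the highest S100a4, vehicle replicate 4 and IL-33 replicate 3, were also those with the most negative length trends, and S100a4 has the shortest exons of the members (584 bases). The 6 neutrophil markers summed to 465 CPM in vehicle replicate 4 and to 43 to 161 CPM in the other 15 tumors. The part of the length trend and of neutrophils in this result was not tested. S100a6, a related calcium-binding protein, was at 10677 CPM in vehicle replicate 4, at 1991 to 2943 CPM in the other vehicle tumors and at 1645 to 3184 CPM in the IL-33 tumors other than replicate 7.

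Cdh2, N-cadherin (chr18:16588877-16809246), was scarcely detected outside 1 tumor. It had 8 to 78 reads in 15 tumors, or 0.453 to 4.78 CPM, and 448 reads (25.5 CPM) in IL-33 replicate 7. The vehicle values were 0.453, 1.90 and 4.78 CPM as lowest, median and highest and the IL-33 values 0.591, 1.72 and 25.5 CPM. Apart from replicate 7 all IL-33 tumors were inside the vehicle range. The log2 fold change was 0.97 ± 0.69 with all tumors and -0.35 ± 0.44 without replicate 7. With all tumors DESeq2 gave -0.33 ± 0.44, close to its -0.36 ± 0.44 without replicate 7, and limma voom with quality weights gave 0.05 ± 0.48. Whether the DESeq2 value with all tumors drew on the count of replicate 7 was not tested. With all tumors the sign for Cdh2 thus differed between tools, and no direction is read from it. The exact permutation p was 0.635 with replicate 7 and 0.734 without it.

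**Figure D3:**
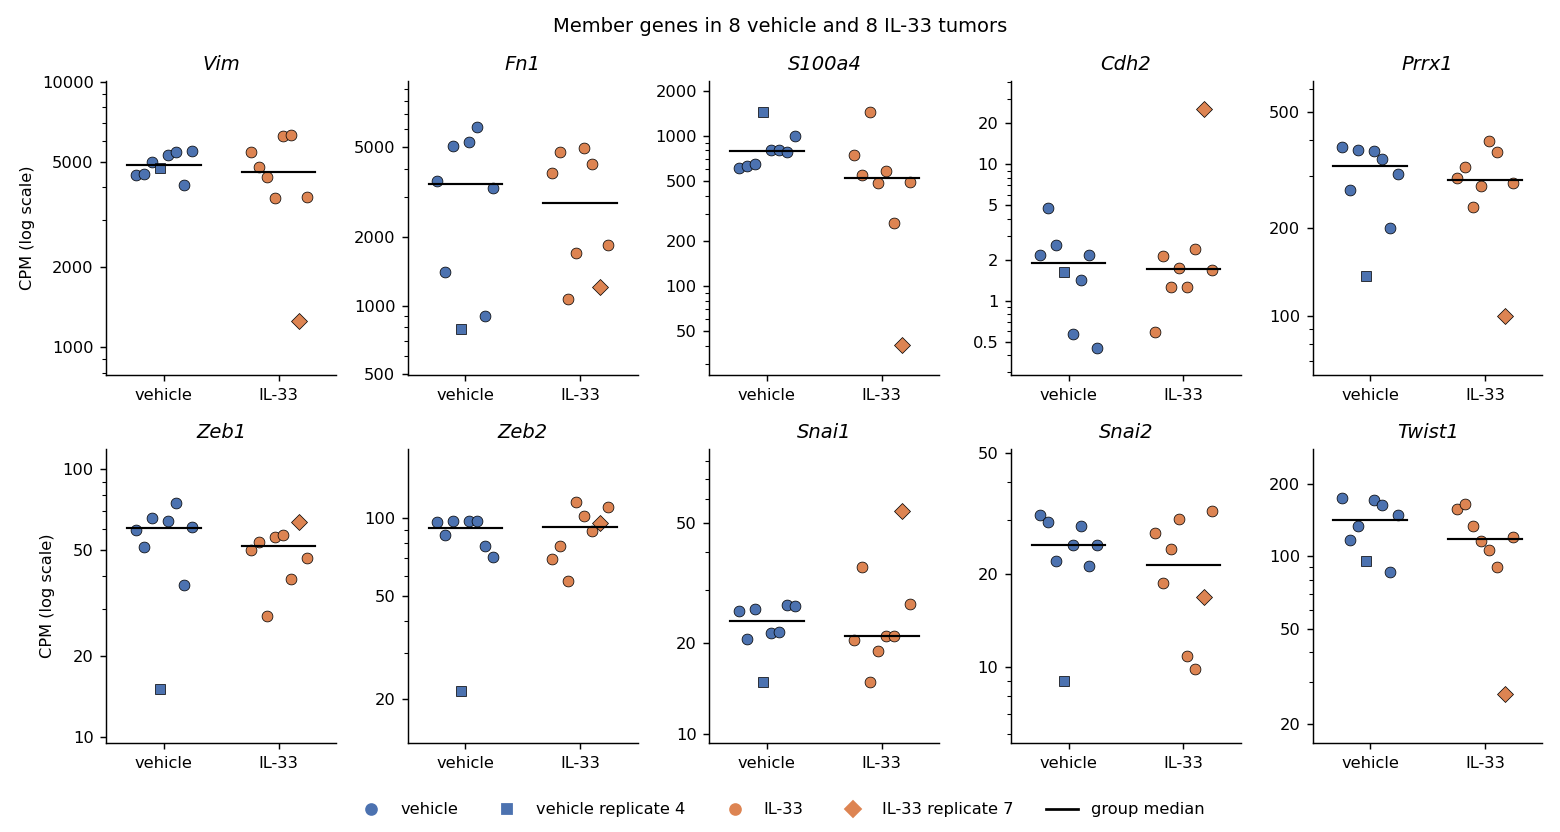
CPM (log scale) of the 10 members in each tumor, vehicle in blue and IL-33 treatment in orange, with group medians as lines. Vehicle replicate 4 (square) is lowest of its group for Zeb1, Zeb2, Snai1, Snai2, Fn1 and Prrx1 and highest for S100a4, and IL-33 replicate 7 (diamond) is lowest of its group for Vim, Twist1, Prrx1 and S100a4 and highest for Cdh2, Snai1 and Zeb1.

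The transcription factors follow. Zeb1, a zinc-finger repressor of Cdh1 (chr18:5591860-5775467), had 15.1, 60.2 and 74.5 CPM as lowest, median and highest in the vehicle group and 28.3, 51.8 and 63.5 CPM over the treated tumors. Every IL-33 tumor was inside the vehicle range. Its log2 fold change was -0.17 ± 0.21 (95% interval -0.61 to 0.26). Without both IL-33 replicate 7 and vehicle replicate 4 it was -0.30 ± 0.17, with an interval of -0.67 to 0.07.

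Zeb2, its paralog, which macrophages and other stromal cells also express (chr2:44983632-45117395), had 21.5, 91.4 and 97.4 CPM in the vehicle group and 57.4, 92.4 and 116 CPM in the IL-33 treatment group, as lowest, median and highest. The vehicle minimum was replicate 4, and 3 IL-33 tumors exceeded the vehicle maximum. The log2 fold change came to 0.11 ± 0.20 over all tumors and 0.02 ± 0.15 without both tumors that stood apart. Its exact permutation p was 0.534.

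Snai1, or Snail (chr2:167538195-167542814), had 14.9, 23.7 and 26.7 CPM as lowest, median and highest in the vehicle group and 14.9, 21.1 and 55.0 CPM over the treated tumors. The maximum was again IL-33 replicate 7, followed by replicate 2 at 35.8 CPM. Its log2 fold change was 0.12 ± 0.20, and -0.04 ± 0.16 without replicate 7. Snai2, or Slug (chr16:14705852-14709385), had 8.98, 25 and 31.2 CPM in the vehicle group and 9.84, 21.5 and 32.1 CPM over the treated tumors. The 3 lowest of the 16 were vehicle replicate 4 and IL-33 replicates 6 and 5 (8.98, 9.84 and 10.8 CPM). For Snai2 the log2 fold change was -0.24 ± 0.23, with a 95% interval of -0.73 to 0.25.

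Twist1, a basic helix-loop-helix factor of mesoderm and of metastasis (chr12:33957671-33959829), was the most abundant of these factors per length. It had 85.8, 142 and 175 CPM as lowest, median and highest in the vehicle group and 26.7, 118 and 166 CPM in the IL-33 treatment group. Apart from replicate 7 every IL-33 tumor was inside the vehicle range. The log2 fold change was -0.31 ± 0.28, and -0.15 ± 0.17 (95% interval -0.51 to 0.20) without replicate 7. Prrx1, a homeobox factor of mesenchyme (chr1:163245119-163313710), had 137, 325 and 379 CPM in the vehicle group and 99.8, 291 and 398 CPM over the treated tumors. Its log2 fold change was -0.08 ± 0.26, and 0.06 ± 0.18 without replicate 7 (95% interval -0.32 to 0.44).

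IL-33 replicate 7 combined mesenchymal and epithelial transcripts unlike the other tumors. Relative to the median of the other 15, Vim was at 0.262, Twist1 at 0.199, Prrx1 at 0.327, Fn1 at 0.342 and S100a4 at 0.063 of that level, while Snai1 was at 2.54 times and Cdh2 at 15.1 times. Zeb1 (1.19) and Zeb2 (1.08) were close to it. In the same tumor Cdh1 was at 104 CPM and Epcam at 98.8 CPM, against at most 3.01 and 2.40 CPM elsewhere. Acta2, smooth muscle actin, was at 1887 CPM against at most 91.8 CPM, and Col1a1, the main fibrillar collagen, at 3429 CPM against at most 2214 CPM. The part of other tissue in its member values was not tested.

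Of 12 other transition factors, 1 was higher at an unadjusted p under 0.05 (Klf8, at most 0.437 CPM outside IL-33 replicate 7 and 3.59 CPM in it) and 0 were lower, with a median log2 fold change of -0.09. Without replicate 7, 0 of 11 tested passed. Twist2 had a log2 fold change of -0.51 ± 0.30, Tcf3 of -0.09 ± 0.09 and Tcf4 of -0.08 ± 0.16. Among 24 mesenchymal effectors, 2 were higher (Acta2, log2 fold change 2.60, and the actin-binding Tagln, 2.95) and 1 was lower (Timp1, a metalloproteinase inhibitor, -1.14). Over all genes tested, 9.99% were higher and 1.17% lower with all tumors. Without replicate 7 the values were -0.56 for Acta2, -1.04 for Tagln and -1.03 for Timp1, with unadjusted p of 0.274, 0.119 and 0.0502. Timp1 was at 1204 CPM in vehicle replicate 4 and at 168 to 345 CPM in the other vehicle tumors. It was at 173 to 403 CPM in the IL-33 tumors other than replicate 7. In the fit without replicate 7 Lox, a collagen cross-linking oxidase named after its values were seen, had a log2 fold change of -1.41 (unadjusted p 0.0291, adjusted p 0.964). The Lox maximum over those 15 tumors was 404 CPM, in a vehicle tumor, against a median of 36.9 CPM. With all tumors the exact permutation p of Lox was 0.289. Axl, a receptor tyrosine kinase of mesenchymal tumor cells, had a log2 fold change of -0.05 ± 0.22.

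Stromal markers bear on the members because these cells share their transcripts. Of 10 fibroblast markers 0 passed with all tumors, with a median log2 fold change of 0.05, and without replicate 7 the median was -0.83 and 2 were lower (Mfap5 and Pi16, named after their values were seen). Of 9 smooth muscle and pericyte markers 3 were higher and 1 was lower (Cspg4, log2 fold change -0.78 ± 0.19) with all tumors. Without replicate 7, 0 were higher and 3 were lower (Cspg4, Cnn1 and Actg2). Cnn1 and Actg2 were near the floor there, with medians of 0.198 and 0.552 CPM. Over all genes tested, 9.99% were higher and 1.17% lower with all tumors, and 1.83% and 2.29% without replicate 7. Of 9 macrophage markers 0 passed in either fit, with a median of -0.02 over all tumors. Relations of the members with these lists across tumors are described below. The part of these cells in the member values was not tested.

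Of 10 genes for TGF-beta, the classical inducer of the program, its receptors and SMADs, 0 passed in either direction, and the median log2 fold change was 0.13, or 0.01 without replicate 7. Tgfb1 had -0.07 ± 0.16, Tgfbr2 0.27 ± 0.30 and Smad3 0.22 ± 0.16. Of the 21 epithelial counterparts, 12 were higher at an unadjusted p under 0.05 with all tumors, 16 peaked in IL-33 replicate 7, and the median log2 fold change was 4.09. Of all 16817 genes tested, 9.99% were higher in that fit and 7230 peaked in that tumor. Without that tumor 0 of 17 tested were higher, 2 were lower (Krt18 and Cldn3, at most 1.83 and 1.34 CPM in any of the 15, named after their values were seen) and the median was -0.40. Over all genes 1.83% were higher and 2.29% lower without that tumor. Cdh1 then had 0.17 ± 0.34 and Epcam 1.14 ± 0.66, each on levels of at most 3.01 CPM. Krt8, which stayed abundant, had -0.63 ± 0.40 with all tumors, and Tjp1, a junction scaffold, had 0.12 ± 0.35.

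Members varied together across tumors in part. Over 45 pairs of members, tested by permutation with Benjamini-Hochberg adjustment over the 45, 9 had an adjusted p under 0.05 for Pearson's r with all 16 tumors. The number was 5 when IL-33 replicate 7 was left out and 1 when vehicle replicate 4 was left out too. The share of pairs of other genes passing the same test was not computed, so these counts show no relation particular to the members. Zeb1 and Zeb2 gave r = 0.855 (permutation p 0.00148, adjusted 0.0219) and Spearman's rho = 0.532 (permutation p 0.0367, adjusted 0.17). Leaving out the 2 tumors with Zeb1 farthest from its median brought r to 0.259, so the relation rested on those tumors. Within groups r was 0.939 in vehicle tumors and 0.645 in IL-33 tumors.

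The 7 tumors lowest in Fn1 were also the 7 lowest in Prrx1. Of the 45 pairs of members this was the only one whose adjusted p passed for both r and rho with all 16 tumors, and the only one passing for r when both IL-33 replicate 7 and vehicle replicate 4 were left out. Because Fn1 fell into 2 sets, no pooled coefficient is given. Each set spans a narrower range of Fn1 than the 16 tumors do, which limits what a correlation within it can show. The low set held the tumors with the most negative length trends, vehicle replicates 4 (-0.546) and 7 (-0.435) and IL-33 replicate 3 (-0.524). Its other tumors had trends of -0.0321 to 0.226. The part of the length trend in the relation of Fn1 and Prrx1 was not tested. Within the 9 tumors of high Fn1, r with Prrx1 was 0.386 (exact permutation p 0.301, adjusted 0.401), and rho was 0.3 (p 0.437). Within the 7 of low Fn1, r was 0.586 (exact permutation p 0.172, adjusted 0.344), and rho was 0.786 (exact p 0.048, adjusted 0.152), so neither relation passed the adjustment over 4.

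The 4 tumors richest in T cell transcripts were low in Fn1. The summed level of 7 T cell markers was 76.0 CPM in vehicle replicate 7, where Fn1 was 896 CPM, and 61.7, 52.1 and 46.6 CPM in IL-33 replicates 4, 3 and 8, where Fn1 was 1714, 1074 and 1854 CPM. Vehicle replicate 4 had the lowest Fn1 of all and only 8.91 CPM of T cell markers. Macrophage markers summed to 1066.3 to 2291.9 CPM in the 7 tumors of low Fn1 and to 595 to 1286.5 CPM in the other 9. Within the 9 tumors of high Fn1, r between Fn1 and the mean log2 level of the T cell markers was -0.555 (exact permutation p 0.123, adjusted 0.344) and rho was -0.633 (p 0.076, adjusted 0.152). Within the 7 of low Fn1, r was 0.369 (exact permutation p 0.413) and rho was 0.179 (exact permutation p 0.713).

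Vim was also lower where T cell markers were higher, once IL-33 replicate 7 was left out. Over 15 tumors r was -0.807 (permutation p 0.00033, adjusted 0.033 over 100 relations of the members with 10 cell type lists) and rho was -0.714 (p 0.00387, adjusted 0.165), so the relation passed for r alone. Leaving out the 2 tumors farthest in T cell level gave r = -0.733. It was -0.735 within vehicle tumors and -0.884 within the 7 other IL-33 tumors. With all 16 tumors r was -0.359 (permutation p 0.183, adjusted 0.346) and rho was -0.718 (p 0.00262, adjusted 0.0873). Of the 100 relations, 0 passed for r with all tumors and 1 (Vim with T cell markers) when IL-33 replicate 7 was left out. With vehicle replicate 4 left out as well 9 passed for r, of which 1 (Fn1 with T cell markers) also passed for rho. The 9 were Vim with T cell markers, and Fn1 and Prrx1 each with T cell, macrophage, endothelium and ovary markers, all with negative r. The ovary list was near the floor in these tumors. Its 10 genes summed to 3.95 to 8.22 CPM, and 3 of them had no reads outside IL-33 replicate 7. The Fn1 relations also pool its 2 separate sets of tumors. Between the groups, 0 of 7 T cell markers had an unadjusted p under 0.05, and their median log2 fold change was 0.28.

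**Figure D4:**
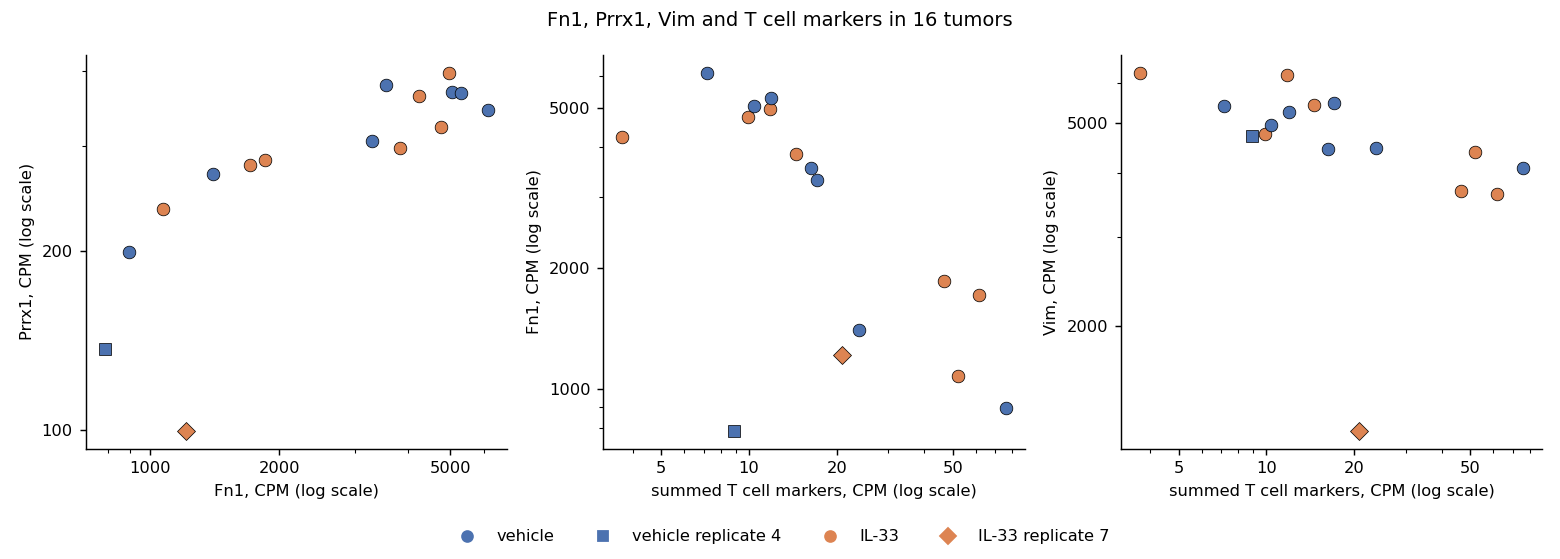
CPM of Prrx1 against Fn1 (left), and of Fn1 (middle) and Vim (right) against the summed CPM of 7 T cell markers, 1 point a tumor, all axes on a log scale. Fn1 shows 2 sets of tumors. Vehicle replicate 4 (square) lies off the other tumors in the middle panel and IL-33 replicate 7 (diamond) in the right panel.

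Members with long exon sequences moved with the length trend of the tumor, a measure added after the data were seen. These were Zeb1 (10266 bases), Zeb2 (19942), Fn1 (11685) and Prrx1 (11066). Genes with long exons tend to rise with this trend by its definition. The share of all genes that pass the same test was not computed, so the counts below show no trait particular to the members. With all tumors 3 of 10 members passed for both r and rho (Zeb1, Zeb2 and Fn1). When IL-33 replicate 7 was left out 4 passed for both, with Prrx1 the fourth, and with vehicle replicate 4 left out too 0 passed for both and 3 for r alone (Zeb1, Zeb2 and Prrx1). Zeb2 gave r = 0.732 (permutation p 5e-05, adjusted 0.0005 over the 10 members) and rho = 0.741 (p 0.00129, adjusted 0.0116), and r = 0.736 without the 2 tumors of most extreme trend. Zeb1 gave r = 0.725 (permutation p 0.00062, adjusted 0.0031) and rho = 0.724 (p 0.00232, adjusted 0.0116), and r = 0.525 without those 2. Within groups r was 0.720 and 0.864 for Zeb2, and 0.747 and 0.699 for Zeb1, in vehicle and IL-33 tumors. Among the 11 tumors whose trend was above -0.1, r was 0.238 for Zeb2 and 0.535 for Zeb1. Prrx1 had r = 0.5 (permutation p 0.0436, adjusted 0.109) with all tumors, and r = 0.761 (permutation p 0.00037, adjusted 0.00185) with rho = 0.696 (p 0.00507, adjusted 0.0148) over 15. Without IL-33 replicate 7, S100a4 had r = -0.627 (permutation p 0.0103, adjusted 0.0207) and rho = -0.496 (p 0.062, adjusted 0.124), and r = -0.332 without the 2 most extreme tumors. Whether the trend sets these values was not tested.

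**Figure D5:**
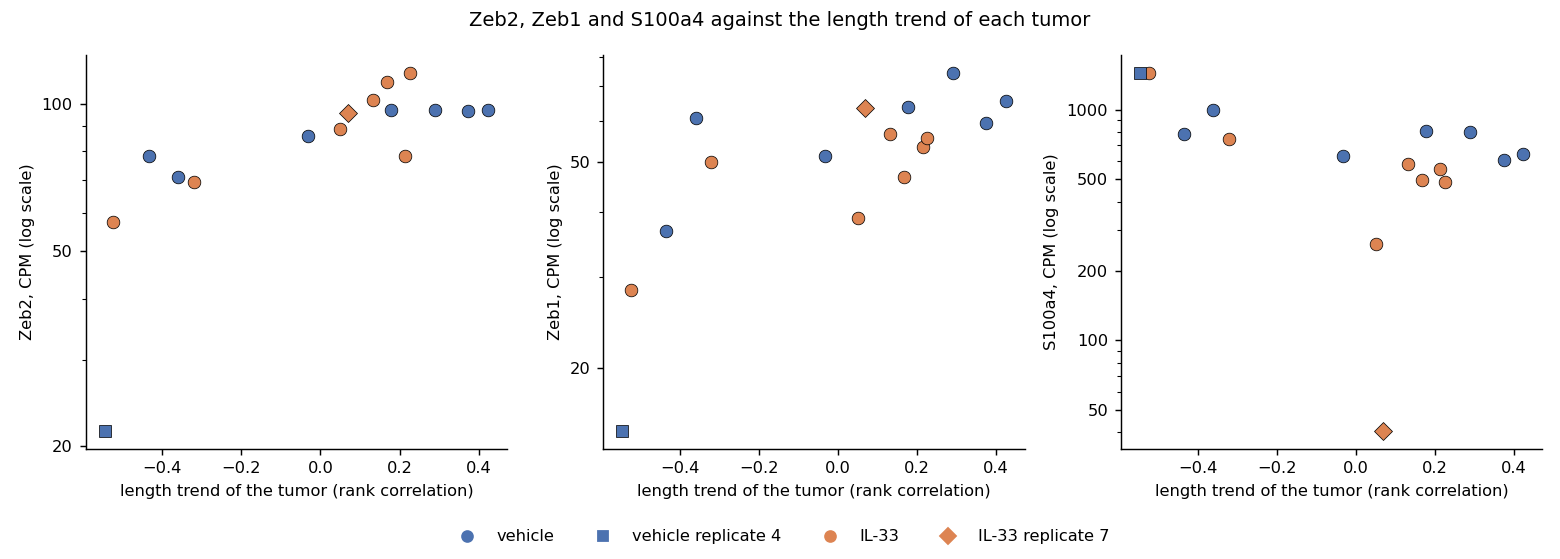
CPM (log scale) of Zeb2, Zeb1 and S100a4 against the length trend of each tumor, the rank correlation across 9581 genes between exon length and a gene's deviation from its median. Vehicle replicate 4 (square) and IL-33 replicate 3 have the most negative trends, the 2 lowest values of both ZEB genes and the 2 highest of S100a4.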

How the data were processed

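Polyadenylated RNA of 8 vehicle and 8 IL-33 abdominal tumors was sequenced by a service company. For each tumor the authors deposited raw read counts per gene, without normalization. The submitters' processing notes name HISAT2, featureCounts and mm10, while versions, annotation release and strand setting are not given in the sources used here, so overlapping or antisense genes may share reads. Total counts were 14139268 to 24290794 per tumor, at which counting error matters mainly for Cdh2.

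Symbols and exon lengths came from GENCODE M21 (22255 of 22298 genes). A gene entered the test if its counts over the tumors came to 10 or more. The test was that of edgeR 4.0.16 (R 4.3.3, TMM, quasi-likelihood, Benjamini-Hochberg), checked on simulated counts. For single genes, log2(CPM + 0.5) was also compared over all assignments of tumors to groups (exact permutation test, two-sided), and correlations of log2(CPM + 0.5) by 100000 permutations (exact within the sets of 7 and 9 tumors), with NumPy and SciPy. TPM used exon-union lengths. List levels were means of log2(CPM + 0.5) in correlations and summed CPM elsewhere. Whether tumors came from separate mice is not given in the sources used here, and any pair differed beyond sampling noise. Groups came from the labels.

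The members and gene lists were chosen with earlier results of these data known. Named genes were all members, Cdh1, Epcam, Acta2 and Col1a1, and from each other list the 3 most abundant and up to 4 with the smallest p under 0.05, of which those bearing on the members are given. Alternatives were DESeq2 1.42.0, upper-quartile factors, filterByExpr, no filter, limma 3.58.1 voom with quality weights, a block for the replicate number, a pseudocount of 2, TMM-scaled CPM and leaving out each tumor. Leaving out IL-33 replicate 7 together with vehicle replicate 4, DESeq2 without IL-33 replicate 7, the length trend, and the 2 Fn1 sets were chosen after seeing the data. A result of the mesenchymal effector list is not reported here.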

Additional observations from a re-analysis of the deposited data

Results flagged for a closer look

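Each member was examined in each group for a tumor far from the other 7, and 4 of the 20 groups were marked, where chance marks about 1 in 20. Cdh2 was at 25.5 CPM in IL-33 replicate 7, with the next IL-33 tumor at 2.38 CPM. Zeb2 was at 21.5 CPM and Snai2 at 8.98 CPM in vehicle replicate 4, the lowest of the vehicle group by a wide gap. S100a4 was at 1449.1 CPM in the same tumor, with the next vehicle tumor at 994 CPM.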

How the results depend on the processing

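In all 24 alternative fits 0 members had an adjusted p under 0.05 and 0 were higher at an unadjusted p under 0.05. Under limma voom with quality weights 1 member (Zeb1, unadjusted p 0.0486) was lower and without single tumors 0 to 1 were (S100a4, without IL-33 replicate 3). Of 240 member fold changes 14 changed sign: Vim without both IL-33 replicate 7 and vehicle replicate 4 (0.0608); Cdh2 with DESeq2 (-0.33), without IL-33 replicate 7 (-0.35), with DESeq2 without it (-0.36) and without both tumors (-0.29); Zeb2 with voom (-0.0299) and without vehicle replicate 4 (-0.00567); Snai1 without IL-33 replicate 7 (-0.0423, and -0.0546 with DESeq2) and without both (-0.0449); Fn1 without vehicle replicate 6 (0.0404); Prrx1 without IL-33 replicate 7 (0.0621, and 0.0572 with DESeq2) and without both (0.00523). Of 30 differences in mean log2(CPM + 0.5), 4 changed sign, all without IL-33 replicate 7 (Cdh2 -0.12, Snai1 -0.0383, Fn1 0.12, Prrx1 0.12). Leaving out single tumors gave ranges of -0.35 to 1.26 for Cdh2, -0.00567 to 0.184 for Zeb2, -0.0423 to 0.196 for Snai1, -0.309 to 0.0404 for Fn1 and -0.177 to 0.0621 for Prrx1. The cause was not tested.

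Genes over all with an adjusted p under 0.05 numbered 0 except in DESeq2 without IL-33 replicate 7 (1). Genes higher at an unadjusted p under 0.05 numbered 424 with DESeq2, 499 with filterByExpr, 522 with voom, 286 with DESeq2 without IL-33 replicate 7 and 330 without both tumors, and 289 to 1902 when single tumors were left out. Genes lower numbered 444 with voom, 392 with DESeq2 without IL-33 replicate 7, 329 without both tumors, and 111 to 362 without single tumors. With the replicate number as a block, 246 genes were higher and 72 lower, and 0 members passed. Same-numbered tumors did not deviate together (r from -0.457 to 0.377, 2 of 8 closest to their own number), so the numbers give no pairing. The depth limits Cdh2, with 8 to 78 reads in 15 tumors.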
